A study of Mus musculus with 11 samples.

Results

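The B lymphoid lineage was followed through 9 marker genes, 9 of the 53700 gene rows of the raw count table, in mouse bone marrow cells sorted as short-term haematopoietic stem cells (ST-HSCs). They were taken by symbol after matching Ensembl identifiers, and they are Igkc, Ighm and Jchain (immunoglobulin chains), Cd79a and Cd79b (the signalling chains of the B-cell receptor), Blnk (an adaptor), Ebf1 and Pax5 (transcription factors) and Vpreb3 (a B-cell precursor protein). The cells came from C57BL/6j hosts that had received a bone marrow graft of acute myeloid leukaemia with Flt3-ITD and without Tet2. The 11 libraries formed 4 groups: 3 from CXCL12 KO hosts (titled Cre_pos) treated with cytarabine, doxorubicin and quizartinib (257, 263 and 276), 3 from CXCL12 WT hosts (titled Cre_neg) given the same drugs (252, 262 and 266), 2 from CXCL12 KO hosts given vehicle (249 and 275), and 3 from CXCL12 WT hosts given vehicle (240, 253 and 265). Per the series title the deletion of CXCL12 lies in the microenvironment of the leukaemia cells, here called the niche. All groups share the leukaemia graft. Cytarabine and doxorubicin block or damage DNA copying, and quizartinib inhibits the FLT3 kinase. The labels do not give the Cre driver, the hosts' age and sex, or whether the sorted cells are of graft or host origin. They also do not say whether each library is 1 animal, so each p-value reflects the spread among these libraries alone, which may be technical.

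B cells arise in the bone marrow from lymphoid progenitors, in which the transcription factors EBF1 and PAX5 switch on the B-cell programme. Precursors rearrange first their heavy-chain and then their light-chain variable segments, test the heavy chain with a surrogate light chain, and place it on the surface with CD79A and CD79B, from which signals run through the adaptor BLNK. Plasma cells secrete large amounts of immunoglobulin, which the J chain joins into polymers. CXCL12, which the stromal cells of the marrow make, is known as a factor that B-cell precursors need there. Multipotent stem cells are not expected to carry rearranged immunoglobulin loci, although some B-lineage genes, Cd79b and Ighm constant-region transcripts among them, are known to be transcribed at low levels before commitment.

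Depth ran from 22.4 to 31.1 M gene counts in the 6 treated libraries and from 8.13 to 22.2 M in the 5 vehicle libraries, so every treated library was deeper than any vehicle library, and depth cannot be told apart from treatment. A count of 3, the limit that a count of 0 allows, corresponded to 0.0879 to 0.155 CPM (gene counts scaled per M counts, with TMM factors) in treated and 0.123 to 0.369 CPM in vehicle libraries. This limit, and every counting interval below, covers counting error only. Kit, a receptor used in sorting stem and progenitor cells, had counts in every library, at 20.5 to 243 CPM. The sort also held transcripts of other lineages: 12 granulocyte genes summed to 10801 to 154667 CPM, and 10 erythroid genes to 22419 to 108651 CPM in KO treated libraries, 258 to 650.0 CPM in WT treated libraries, 341 to 17574 CPM in KO vehicle libraries and 63.9 to 1132 CPM in WT vehicle libraries.

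All 9 genes passed the filter on low counts, but their levels spanned several orders of magnitude. Set per kilobase of exon, Ighm had the highest mean over the 11 libraries, 206 CPM per kb, followed by Igkc at 162, Cd79b at 38.2 and Jchain at 10.2. The other 5 were low, with Vpreb3 at 1.37 CPM per kb, Cd79a at 0.939, Blnk at 0.411, Ebf1 at 0.0820 and Pax5 at 0.0174. Neighbours in this order such as Ighm and Igkc, or Vpreb3 and Cd79a, overlapped widely between libraries. Igkc, Ighm, Jchain and Cd79b had counts in all 11 libraries, Blnk in 10, Ebf1 in 9, Cd79a and Vpreb3 in 8 and Pax5 in 5.

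**Figure D1:**
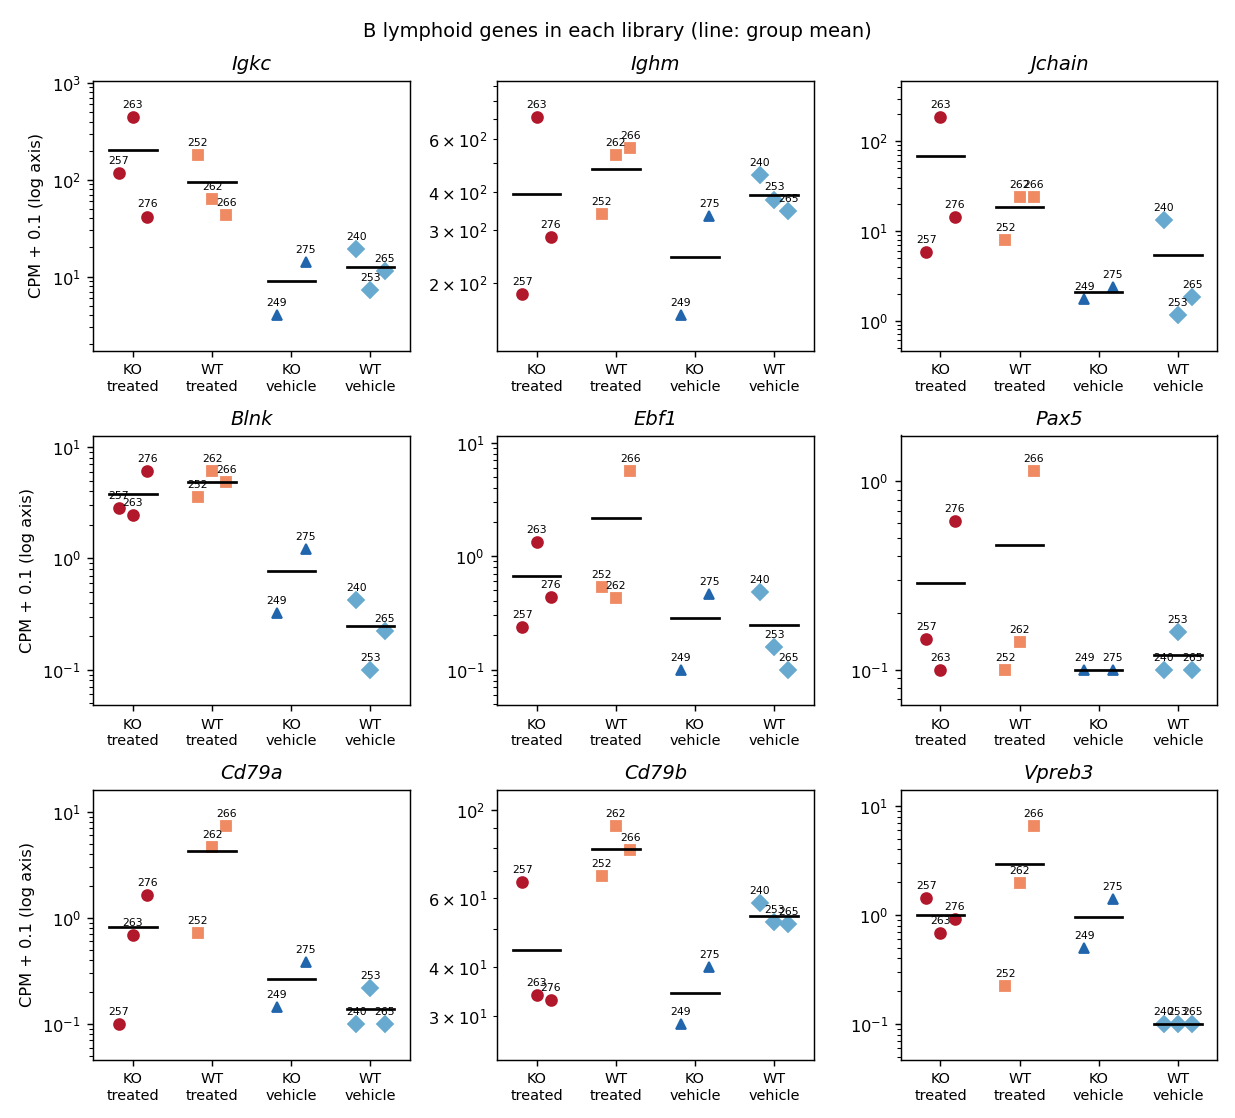
Level of each B lymphoid gene in each library, as CPM plus 0.1 on a log axis that differs between panels, with libraries numbered, points grouped by niche genotype and treatment, and a line at the group mean. Igkc lies higher in all 6 treated libraries (41.6 CPM or more) than in the 5 vehicle libraries (19.2 CPM or less), while Ighm overlaps between treatments.

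Igkc, the constant gene of the kappa light chain, separated treated from vehicle libraries in both niches. It was at 118, 448 and 41.6 CPM in KO treated libraries, at 180.1, 62.8 and 43.3 CPM in WT treated libraries, at 3.89 and 13.9 CPM in KO vehicle libraries and at 19.2, 7.23 and 11.2 CPM in WT vehicle libraries. Every treated library was above every vehicle library, and the KO and WT libraries overlapped within each treatment. The log2 fold change was 4.51 ± 1.12 (SE) for treated over vehicle in the KO niche and 2.93 ± 0.87 in the WT niche, with adjusted p-values of 1 and 0.177 (edgeR quasi-likelihood test, Benjamini-Hochberg adjustment over 16639 genes). The unadjusted p-values were 0.00181 and 0.00614, and neither comparison passed the threshold of 0.05 after adjustment. Leaving out 1 library gave Igkc values of 3.21 (without 263) to 5.62 (without 275) in the KO niche and 2.08 (without 252) to 3.38 (without 240) in the WT niche. For KO over WT, the log2 fold change was 1.08 ± 0.82 in treated and -0.50 ± 0.93 in vehicle hosts (adjusted p = 0.698 and 0.981, edgeR). Library 263 set the direction in treated hosts: without it the value was -0.21. Fewer cells of a type and less RNA per cell cannot be told apart in bulk libraries, and whether B-lineage cells in the sort or the sorted cells themselves gave these reads was not tested.

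Ighm, the constant gene of the mu heavy chain, was the most abundant member, and its treated and vehicle libraries overlapped. It was at 184, 710.3 and 283 CPM in KO treated libraries, 339, 531 and 558 CPM in WT treated libraries, 156 and 332 CPM in KO vehicle libraries and 454, 377 and 344 CPM in WT vehicle libraries. The overlap held in both niches, and the 2 KO vehicle libraries lay below all 3 of their WT counterparts, with a log2 fold change of -0.68 ± 0.54 (edgeR adjusted p = 0.863). Treated over vehicle, the log2 fold change of Ighm was 0.69 ± 0.54 in the KO niche and 0.28 ± 0.48 in the WT niche, against the 4.51 ± 1.12 and 2.93 ± 0.87 of Igkc in the same comparisons. Vehicle libraries held Ighm with little Igkc: KO vehicle averaged 244 CPM of Ighm and 8.88 CPM of Igkc, and WT vehicle 392 and 12.5 CPM. KO treated libraries averaged 392 CPM of Ighm and 202 CPM of Igkc, and WT treated libraries 476 and 95.4 CPM.

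Jchain, which joins immunoglobulin M and A into polymers, was led by a single library. It was at 5.70, 188 and 14.2 CPM in KO treated libraries, 7.89, 23.6 and 23.6 CPM in WT treated libraries, 1.66 and 2.29 CPM in KO vehicle and 13.0, 1.05 and 1.72 CPM in WT vehicle libraries. Library 263 stood far above the other 10, and KO treated libraries did not overlap KO vehicle libraries, whereas WT vehicle library 240 lay within the WT treated range. The log2 fold change for treated over vehicle was 5.13 ± 1.66 in the KO niche (unadjusted p = 0.00972, adjusted p = 1, edgeR) and 1.80 ± 1.20 in the WT niche (adjusted p = 0.443). Without library 263 the KO niche value was 2.34, and without library 240 the WT niche value was 3.75. For KO over WT it was 1.91 ± 1.20 in treated hosts, and -0.90 without library 263. It was -1.42 ± 1.39 in vehicle hosts, and 0.53 without library 240.

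The variable segments, whose rearrangement marks a cell as B-lineage, were not used in the choice of genes. Counts on a segment do not show by themselves that it was rearranged. Kappa segment reads can also come from the same transcripts as those of Igkc. The table held 160 kappa and 185 heavy variable segments, and each treated library had most of its kappa segment counts in 1 segment. In KO treated libraries the leading segment was Igkv12-46 with 451 of 572 counts (78.8%) in 257, Igkv4-72 with 7820 of 8246 (94.8%) in 263 and Igkv14-126 with 500 of 582 (85.9%) in 276. In WT treated libraries it was Igkv19-93 with 2893 of 4054 (71.4%) in 252, Igkv14-126 with 989 of 1010 (97.9%) in 262 and Igkv15-103 with 238 of 438 (54.3%) in 266. Among the vehicle libraries, Igkv1-117 held 141 of 205 counts (68.8%) in WT vehicle 240, and the leading segment held 21.6% and 30.7% in the KO vehicle libraries and 23.2% and 28.0% in WT vehicle 253 and 265, on only 37, 101, 69 and 50 counts. Apart from Igkv14-126, a segment that led a treated library had 23 counts or fewer in each of the other libraries. The exact binomial 95% intervals of the share in the 6 treated libraries, from 49.5% at the lowest to 98.7% at the highest, cover counting error only. Segments of close sequence share reads, so single counts are uncertain.

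**Figure D2:**
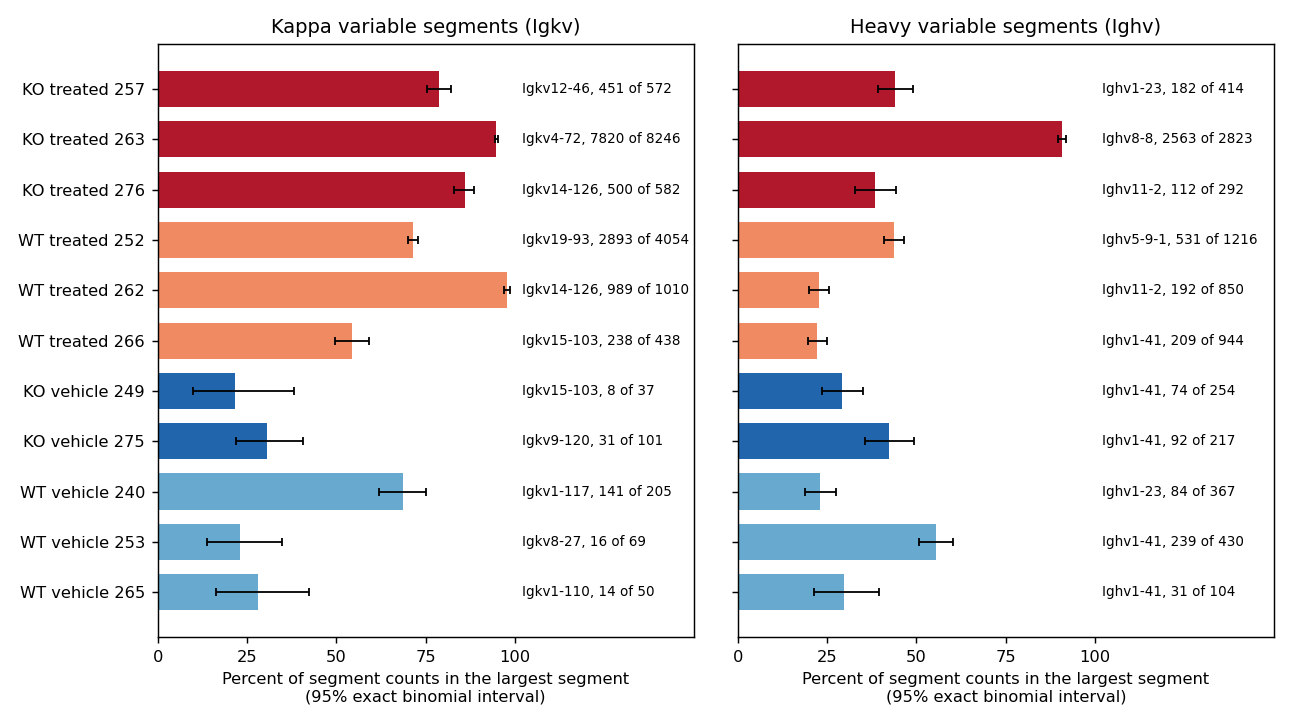
Share of kappa (left) and heavy (right) variable-segment counts held by the largest segment of each library, in percent with 95% exact binomial intervals; the segment and its counts are written beside each bar and colours mark the 4 groups. Leading kappa segments hold 54.3% to 97.9% in treated libraries, and only library 263 has a heavy segment above 60%.

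The leading heavy-chain segment held a smaller share than the leading kappa segment in each of the 6 treated libraries and in WT vehicle 240, and a larger share in the other 4 vehicle libraries, on few kappa counts. In KO treated 263, Ighv8-8 held 2563 of 2823 heavy segment counts (90.8%) and had 0 counts in the other 10 libraries, and the same library held the highest Ighm, Igkc and Jchain. Ighv11-2 led in KO treated 276, with 112 of 292 counts (38.4%), and in WT treated 262, with 192 of 850 (22.6%), the same pair of libraries that shared Igkv14-126. Ighv11-2 with Igkv14-126 is known as the pairing of mouse B-1 cells that bind phosphatidylcholine, and whether the reads of these libraries come from such cells was not tested. Ighv1-41 led in 5 libraries, WT treated 266, KO vehicle 249 and 275, and WT vehicle 253 and 265, and it had counts in 10 of the 11 libraries. Set against the constant genes, there were 22.4 to 69.6 kappa segment counts per 100 Igkc counts and 2.67 to 11.6 heavy segment counts per 100 Ighm counts. These ratios are not corrected for exon length, which is 532 bases for Igkc and 1886 for Ighm, so they cannot be compared directly.

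Cd79b, the Ig-beta chain of the B-cell receptor complex, had the smallest ratio of highest to lowest library among the members and lay lower in KO than in WT libraries of both treatments. It was at 65.6, 33.9 and 32.9 CPM in KO treated libraries and 68.0, 91.2 and 79.2 CPM in WT treated libraries, and at 28.6 and 40.0 CPM in KO vehicle libraries and 58.0, 52.0 and 51.2 CPM in WT vehicle libraries. All KO libraries lay below all WT libraries of the same treatment, and the closest pair was KO treated 257 at 65.6 CPM and WT treated 252 at 68.0 CPM. KO treated libraries averaged 44.1 ± 18.6 CPM, and WT treated libraries 79.5 ± 11.6 CPM (SD, n = 3 each), a log2 fold change of -0.85 ± 0.34 (unadjusted p = 0.0270, adjusted p = 0.434, edgeR quasi-likelihood test). In vehicle hosts the log2 fold change was -0.65 ± 0.38 (adjusted p = 0.773), and the interaction, which tests whether the niche difference depends on treatment, was -0.20 ± 0.50 (adjusted p = 0.968, edgeR). Both comparisons without overlap and lower in KO were met by 0.589% of all genes tested, or 98 genes, with 1 of the 9 members among them. WT treated libraries lay above WT vehicle libraries without overlap, at a log2 fold change of 0.56 ± 0.33 (adjusted p = 0.386), and in the KO niche it was 0.36 ± 0.38 with overlapping libraries.

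Whether Cd79b was called in treated hosts depended on library 257 and on the test. Without library 257 the log2 fold change was -1.25 with an edgeR adjusted p of 0.0186, and with limma voom and quality weights on all libraries it was -1.24 with an adjusted p of 0.00221, settings under which 1513 and 4375 of all genes were called. With DESeq2 size factors the KO and WT treated libraries overlapped, and with scaling by total gene counts those of the vehicle hosts did. Erythroid genes ran the opposite way in the same comparison, with a median log2 fold change of 6.76 over 10 genes. The median of 12 granulocyte genes was -1.62. The part of these genes in the Cd79b difference was not tested.

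Cd79a, the Ig-alpha chain that pairs with CD79B, was far less abundant and had no count in 3 libraries, while its partner was counted in all 11. It was at 0, 0.586 and 1.56 CPM in KO treated libraries, 0.619, 4.56 and 7.28 CPM in WT treated libraries, 0.0448 and 0.286 CPM in KO vehicle libraries and 0, 0.117 and 0 CPM in WT vehicle libraries. WT treated libraries had 273 Cd79a counts in all and WT vehicle libraries 2, a ratio of pooled CPM of 72.9 with a counting interval of 20.0 to 605. Both vehicle counts lay in library 253, without which WT treated libraries were at least 28.2-fold higher (floor of 3 counts over the group), and without another library the ratio was 45.2 (240) to 117 (252). The WT treated and WT vehicle libraries did not overlap, the log2 fold change was 6.37 ± 2.05 and the edgeR adjusted p was 0.182 (unadjusted 0.00957). In the KO niche the libraries overlapped, since treated library 257 had no count, with a log2 fold change of 2.07 ± 1.91 (adjusted p = 1), and of 0.73 without 276 and 3.79 without 275. The difference between those changes was not called (edgeR adjusted p = 0.791 for the interaction). KO over WT, the log2 fold change of Cd79a was -2.53 ± 1.64 in treated and 1.78 ± 1.98 in vehicle hosts (adjusted p = 0.626 and 0.926).

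Blnk, the adaptor that links the receptor's kinase to downstream enzymes, lay higher in every treated library than in any vehicle library. It was at 2.71, 2.37 and 5.96 CPM in KO treated libraries and 3.46, 5.98 and 4.80 CPM in WT treated libraries, against 0.224 and 1.10 CPM in KO vehicle libraries and 0.323, 0 and 0.123 CPM in WT vehicle libraries. The highest vehicle library, 275, stayed below the lowest treated library, 263, and the KO and WT libraries overlapped within each treatment. Pooled counts were 352 in WT treated and 6 in WT vehicle libraries, with a log2 fold change of 4.94 ± 1.35 (unadjusted p = 0.00344, adjusted p = 0.173, edgeR). They were 301 in KO treated and 32 in KO vehicle libraries, with a log2 fold change of 2.46 ± 1.37 (adjusted p = 1). Leaving out 1 library gave Blnk values of 4.31 (without 253) to 6.51 (without 240) in the WT niche and 1.72 (without 249) to 3.98 (without 275) in the KO niche. KO over WT, Blnk had a log2 fold change of -0.37 ± 1.11 in treated and 2.12 ± 1.32 in vehicle hosts (adjusted p = 0.953 and 0.793). Igkc and Blnk were the 2 members that lay higher without overlap in both treated-against-vehicle comparisons, a pattern that 2.1% of all genes showed. Blnk would not have passed the filter on low counts without its treated libraries, so its place here is in part fixed by that filter.

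Vpreb3, a small protein that binds newly made mu chains in B-cell precursors, had no count in any WT vehicle library and counts in every library of the other groups. It was at 1.33, 0.586 and 0.815 CPM in KO treated libraries, 0.124, 1.87 and 6.51 CPM in WT treated libraries, 0.403 and 1.31 CPM in KO vehicle libraries and 0, 0 and 0 CPM in WT vehicle libraries. Against a floor of 3 counts over the WT vehicle group, it was at least 31.3-fold higher in WT treated and at least 11.9-fold higher in KO vehicle libraries. Library 266 held 126 of the 176 WT treated counts, and without it the first bound was 11.9-fold. With any other library of those groups left out it was 18.2-fold (without 253) to 53.2-fold (without 252). The second bound was 5.47-fold without 275, which held 32 of the 41 KO vehicle counts, and 6.89-fold (without 253) to 17.8-fold (without 249) without another library. The lowest WT treated value, 0.124 CPM in library 252, was itself below the largest floor of a single WT vehicle library, 0.369 CPM, so the lack of overlap rests on few counts there. The edgeR adjusted p was 0.172 for WT treated over WT vehicle (unadjusted 0.00267) and 0.635 for KO vehicle over WT vehicle (unadjusted 0.00919). Treated and vehicle libraries overlapped in the KO niche, with a log2 fold change of 0.09 ± 1.54, and KO and WT treated libraries overlapped at -1.63 ± 1.40, a value of -0.13 without library 266. The interaction had an unadjusted p of 0.00771 and an adjusted p of 0.767 (edgeR).

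Blnk, Cd79a and Vpreb3, whose WT treated and WT vehicle libraries did not overlap, are shown with their promoters, 250 bases before and 50 from the start on, from RefSeq (GRCm38.p6). Capitals mark the octamer ATGCAAAT bound by OCT factors, the E-box CAGGTG bound by E proteins and the letters CCCNNGAG, a variant of the core letters of EBF sites, on either strand. The Blnk window is chr19:40994172-40994471 on the minus strand, the Cd79a window chr7:24897247-24897546 and the Vpreb3 window chr10:75948050-75948349, both on the plus strand.
Blnk: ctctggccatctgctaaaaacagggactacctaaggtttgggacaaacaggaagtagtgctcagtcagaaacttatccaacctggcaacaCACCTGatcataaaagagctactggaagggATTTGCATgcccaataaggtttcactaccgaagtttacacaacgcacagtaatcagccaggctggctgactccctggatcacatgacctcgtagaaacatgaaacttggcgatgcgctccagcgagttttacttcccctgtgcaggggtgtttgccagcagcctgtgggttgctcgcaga
Cd79a: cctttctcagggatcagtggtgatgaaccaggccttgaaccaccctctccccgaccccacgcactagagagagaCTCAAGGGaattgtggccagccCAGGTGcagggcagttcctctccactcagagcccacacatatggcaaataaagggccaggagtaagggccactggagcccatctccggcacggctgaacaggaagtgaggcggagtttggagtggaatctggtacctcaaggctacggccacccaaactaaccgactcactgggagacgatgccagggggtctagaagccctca
Vpreb3: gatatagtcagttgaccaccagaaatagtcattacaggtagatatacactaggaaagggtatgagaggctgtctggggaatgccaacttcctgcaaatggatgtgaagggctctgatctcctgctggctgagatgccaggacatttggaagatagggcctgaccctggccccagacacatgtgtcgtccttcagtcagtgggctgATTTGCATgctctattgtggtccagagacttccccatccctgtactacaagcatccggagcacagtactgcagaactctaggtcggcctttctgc
The octamer, read as ATTTGCAT here and hence on the opposite strand, lay 130 bases before the start of Blnk and 45 before that of Vpreb3. It was present in 1.74% of 32851 promoter windows of the same length. The E-box lay 160 bases before the start of Blnk and 154 before that of Cd79a, and it was present in 20.2% of all windows. CCCNNGAG lay 176 bases before the start of Cd79a and was present in 24.6% of all windows, while the palindrome CCCNNGGG was present in none of the members' windows and in 13.7% of all. None of these matches overlapped another in the 3 windows printed. RefSeq windows were found for 6 of the 9 members, with 7 windows among them, and these matches describe letters and not binding.

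Ebf1 and Pax5, the factors that open and fix the B-cell programme, were at or near the limit of detection in most libraries. Ebf1 was at 0.138, 1.23 and 0.333 CPM in KO treated libraries, 0.433, 0.326 and 5.52 CPM in WT treated libraries, 0 and 0.368 CPM in KO vehicle libraries and 0.388, 0.0583 and 0 CPM in WT vehicle libraries. WT treated 266 stood out most, followed by KO treated 263, which held 42 of the 54 KO treated counts, and all groups overlapped. The log2 fold change for treated over vehicle was 1.59 ± 1.98 in the KO niche and 3.69 ± 1.88 in the WT niche (edgeR adjusted p = 1 and 0.316). In the WT niche it was 1.26 without library 266 and 5.66 without 240, and in the KO niche 0.36 without 263. The KO over WT value was -1.86 ± 1.70 in treated and 0.24 ± 1.95 in vehicle hosts (adjusted p = 0.772 and 1), and without library 266 the value in treated hosts was 0.58.

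Pax5 was at 0.0460, 0 and 0.519 CPM in KO treated libraries, 0, 0.0407 and 1.03 CPM in WT treated libraries, 0 in both KO vehicle libraries and 0, 0.0583 and 0 CPM in WT vehicle libraries. Its highest counts were 20 in WT treated 266 and 14 in KO treated 276, and libraries without a count were found in every group. Over the groups, KO treated libraries were at least 2.82-fold above KO vehicle libraries (floor of 3 counts). Library 276 held 14 of these 15 counts, and without it 1 count was left, under the floor, so no fold is given. The bound was 1.35-fold without vehicle library 275 and 1.47-fold without 249, and 4.80-fold without treated library 263. WT treated libraries had 21 counts against 1 in WT vehicle libraries, a ratio of pooled CPM of 11.2 with a counting interval of 1.80 to 464. Without library 266, 1 count was left against 1, a ratio of 0.716 with an interval of 0.00912 to 56.2, so the direction rested on that library. Without 240 the ratio was 6.96, and without 252 it was 19.5. Without 253, which held the vehicle count, WT treated libraries were at least 2.17-fold higher. The edgeR adjusted p was 1 and 0.447 in those comparisons, and 0.932 for KO over WT in treated hosts, at a log2 fold change of -0.89 ± 2.05. In vehicle hosts both niches were at or under the floor, so no fold is given. Reads of the unstranded kit from 2 antisense genes that overlap Pax5 exons in an annotation of an earlier build cannot be told apart from its own.

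Of the 15 names listed for the surrogate light chain and receptor gene recombination, 13 had a row and 12 were tested, and none passed the test in any comparison. Of those 13, 5 (Igll1, Rag1, Rag2, Vpreb1 and Xrcc4) were highest in WT treated library 266, as Ebf1, Pax5, Cd79a and Vpreb3 were, and 8 peaked elsewhere. Library 266 also held the highest level of 8 of the 12 granulocyte genes, and all 12 summed to 154667 CPM there and to 95766 CPM or less in the other 10 libraries, and the part of this in the results was not tested. Vpreb1, a surrogate light chain part, was at 0.598, 1.52 and 0.630 CPM in KO treated libraries, 2.07, 4.92 and 29.0 CPM in WT treated libraries, 0.224 and 0.368 CPM in KO vehicle libraries and 0, 0 and 3.45 CPM in WT vehicle libraries. Igll1, its partner, was at 1.33, 1.90 and 1.82 CPM in KO treated libraries, 2.78, 8.18 and 29.0 CPM in WT treated libraries, 0.537 and 0.164 CPM in KO vehicle and 2.13, 0.0583 and 0.123 CPM in WT vehicle libraries. Both were highest in 266 and lower in every KO treated than in every WT treated library. Of the 12 tested genes of the list 2 lay so, against 9.56% of all genes. The log2 fold changes were -3.70 ± 1.81 for Vpreb1 and -2.98 ± 1.32 for Igll1 (edgeR adjusted p = 0.498 and 0.463). They were not recomputed without 266. Reads of Vpreb1 can be shared with its near-identical copy Vpreb2. Rag1, a subunit of the recombinase, had 20 counts in WT treated and 1 in KO treated libraries and none in vehicle libraries, and was not tested. Rag2, the other subunit, picked after its values were seen, was at 2.99, 1.05 and 3.11 CPM in KO treated libraries, at 0.681, 2.81 and 6.92 CPM in WT treated ones and had no count in a vehicle library.

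Dntt and Il7r, from the same list, were highest in other libraries. Dntt, the terminal transferase that adds bases at segment joints, was at 222, 188 and 58.9 CPM in KO treated libraries, 115, 335 and 171 CPM in WT treated libraries, 101 and 28.9 CPM in KO vehicle and 452, 18.3 and 57.1 CPM in WT vehicle libraries, and was highest in WT vehicle 240. Il7r, the receptor for interleukin 7, was highest in KO treated 276 at 7.04 CPM and had no count in KO treated 263, WT treated 266 and WT vehicle 265. Treated over vehicle, 7 of the 12 tested genes of this list had a positive log2 fold change in the KO niche and 8 in the WT niche. KO over WT, 3 of 12 were positive in treated and 3 in vehicle hosts, with medians of -0.34 and -0.26 beside 0.0989 and 0 over all genes tested.

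**Figure D3:**
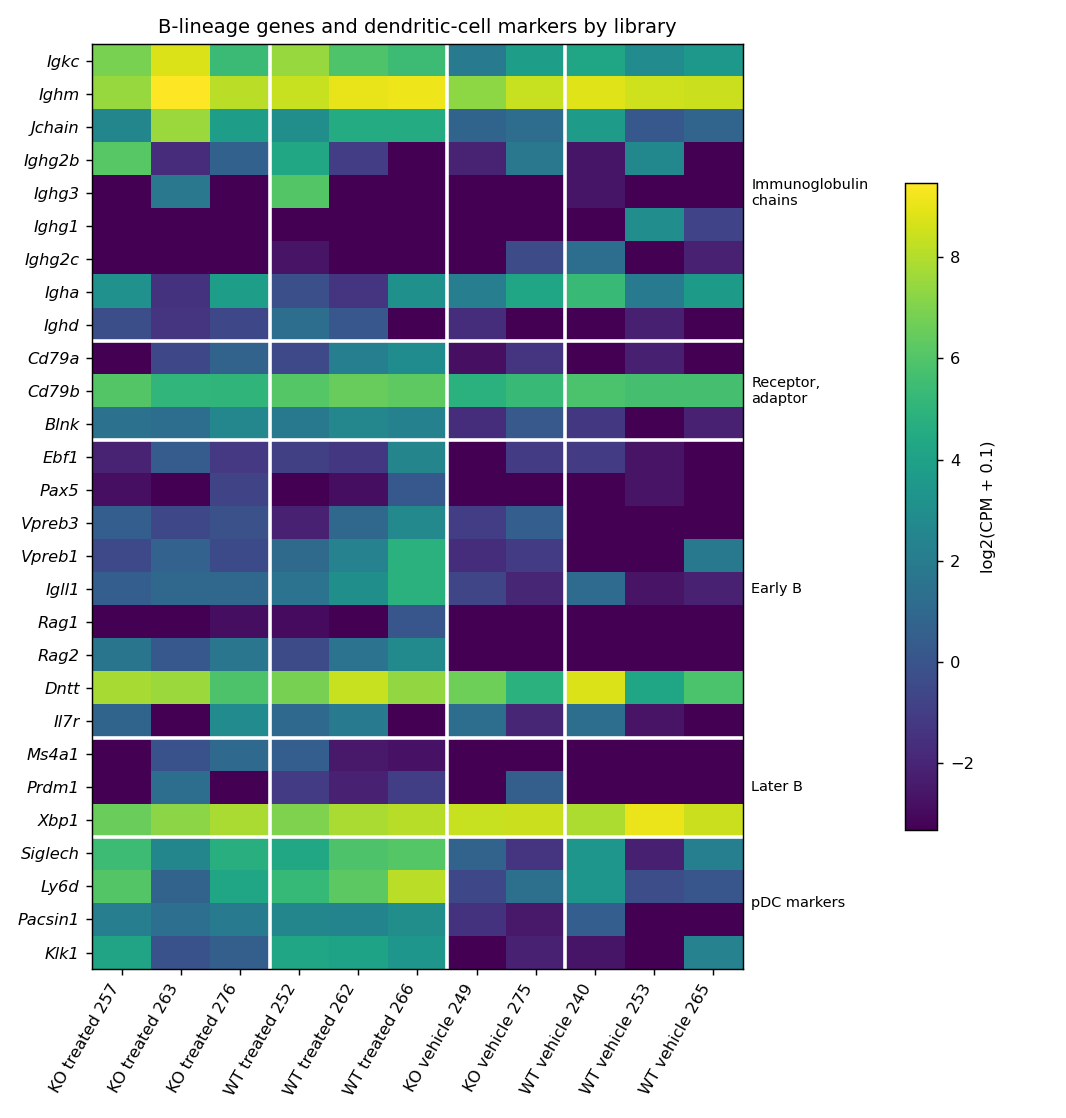
Level of the 9 members, related B-lineage genes and markers of plasmacytoid dendritic cells (pDC), as log2(CPM + 0.1), one column per library and one row per gene, with white lines between groups and gene blocks. The pDC markers shown are Siglech, Ly6d, Pacsin1 and Klk1, a part of those listed. Library 266 is brightest for Vpreb1 and Igll1 (29.0 CPM each) and library 263 for Igkc, Ighm and Jchain, while Ighm and Cd79b are bright in all 11 columns.

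Ms4a1, which encodes the mature B-cell surface protein CD20, was also near the limit of detection and had counts in 5 of the 11 libraries. It was at 0, 0.849 and 1.96 CPM in KO treated libraries, at 1.30, 0.0814 and 0.0516 CPM in WT treated ones, with no count in any vehicle library. Its highest value lay in KO treated 276, not in 263 or 266. Of the 15 listed genes of the mature B-cell surface, 14 were tested and none passed; treated over vehicle, 9 had a positive log2 fold change in the KO niche and 12 in the WT niche, with medians of 1.24 and 1.01 beside 0.120 and 0.0870 over all genes. Fcrla, picked after its values were seen, was at 5.75, 2.20 and 3.52 CPM in KO treated libraries, at 5.35, 4.92 and 2.63 CPM in WT treated ones and had no count in a vehicle library. The most abundant genes of this list, Cd37, Ly86, Tnfrsf13b and Cd72, averaged 165, 126, 87.3 and 17.3 CPM over the libraries, and Cd37 and Ly86 are also expressed by myeloid cells.

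Genes of the receptor's signalling cascade, most of which myeloid cells also use, had mostly negative values for treated over vehicle. Of 24 listed, 23 were tested and none passed; treated over vehicle, 6 had a positive log2 fold change in the KO niche and 7 in the WT niche, with medians of -0.34 and -0.51. The most abundant were Ptpn6, Vav1, Dapp1 and Plcg2, at means of 307, 176, 160 and 149 CPM. Of the 18 B-lineage transcription factors other than members, all were tested and none passed. In them 13 were positive in the KO and 11 in the WT niche for treated over vehicle, and 11 and 8 for KO over WT in treated and vehicle hosts. The most abundant, Irf8, Spi1, Myb and Mef2c at means of 388, 331, 146 and 127 CPM, also act in stem and myeloid cells.

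As a group, the members had 1 sign for treatment and mixed signs for niche, and none passed the test. Treated over vehicle, all 9 had a positive log2 fold change in the KO niche, where 56.1% of all genes did, and all 9 in the WT niche, where 52.6% did. Their median log2 fold change was 2.07 in the KO niche and 3.67 in the WT niche, beside 0.120 and 0.0870 over all genes tested. The WT niche median is the value of Pax5, whose direction rested on library 266. Pax5, Ebf1 and Cd79a passed the filter on low counts through treated libraries alone. Blnk could not have passed on vehicle libraries alone, since only 275 of them reached the filter's cutoff. The positive signs of these genes, and the medians that include them, are thus in part fixed by the filter. So are the counts below, without overlap, by unadjusted p or by DESeq2, where they include Blnk or Cd79a. With genes at 0 in a vehicle group set to their bound, the medians were 1.59 and 3.67. Higher without overlap were 3 of 9 in the KO niche (Blnk, Igkc and Jchain), against 12.3% of all genes, and 5 of 9 in the WT niche (Blnk, Cd79a, Cd79b, Igkc and Vpreb3), against 17.5%. None of the 9 was called in either comparison, and 0% of all 16639 genes were, with smallest adjusted p-values of 1 and 0.0849 among all genes (edgeR). At an unadjusted p under 0.05, 2 members were higher in the KO niche (Igkc and Jchain), against 2.7% of all genes, and 4 in the WT niche (Blnk, Cd79a, Igkc and Vpreb3), against 10.1%. DESeq2's Wald test called the same members, 2 in the KO and 4 in the WT niche, among 23 and 1106 genes.

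KO over WT, 2 of 9 members had a positive log2 fold change in treated hosts (53.9% of all genes) and 4 of 9 in vehicle hosts (48.7%), with medians of -0.85 and -0.50 beside 0.0989 and 0 over all genes. Without Pax5, at or under the floor in both vehicle groups, and with Vpreb3 at its bound, the median in vehicle hosts was -0.13 over 8 genes. Lower without overlap were 1 of 9 in treated hosts (Cd79b, against 9.56% of all genes) and 2 of 9 in vehicle hosts (Cd79b and Ighm, against 7.47%), and 1 of 9 was higher in vehicle hosts (Vpreb3, against 13.2%). None was called, and 0% of all genes were (edgeR). The unadjusted p was under 0.05 for Cd79b in treated hosts (10.6% of all genes) and for Vpreb3 in vehicle hosts (6.78%). The interaction called no member and 0% of all genes, and its unadjusted p was under 0.05 for Vpreb3 alone (6.31% of all genes). Each group enters a pair of these comparisons, so they share libraries and are not independent.

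**Figure D4:**
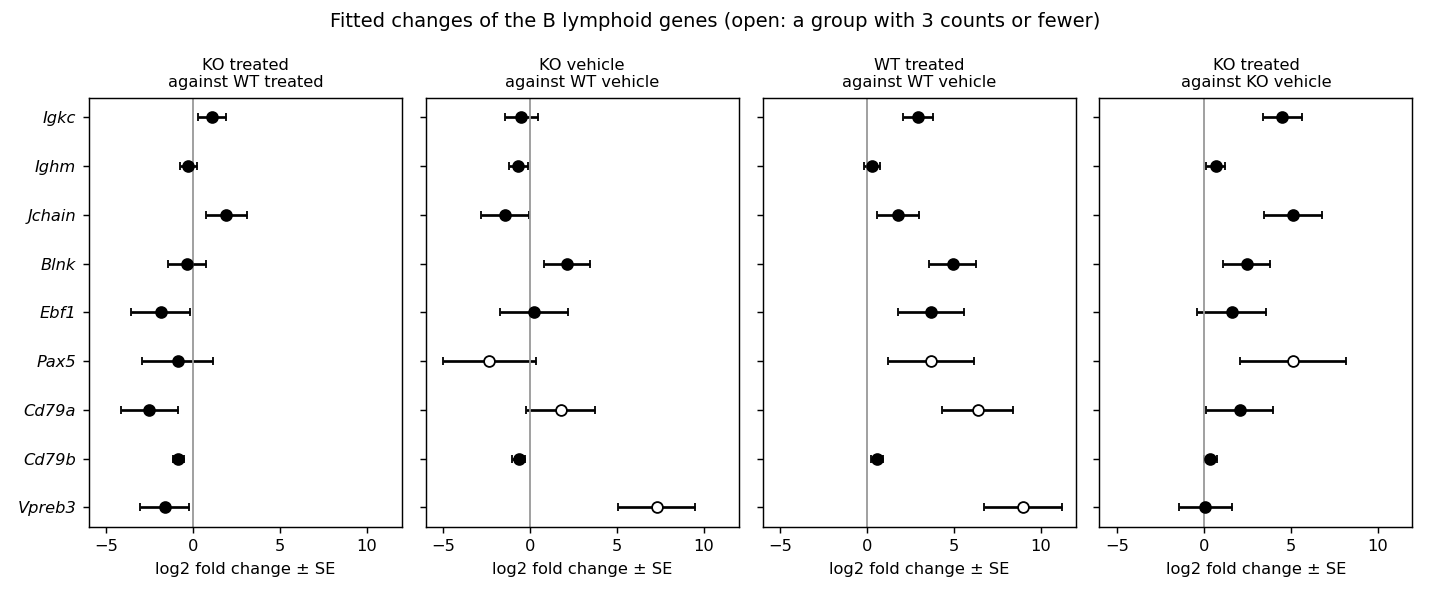
Fitted log2 fold change of each member in the 4 comparisons of 2 groups, with bars of 1 SE; open symbols mark a gene with 3 counts or fewer in a group. All 9 points lie right of 0 for treated over vehicle in both niches, from 0.09 (Vpreb3, KO niche) upwards, and 2 of 9 do for KO over WT in treated hosts.

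The libraries that carried the highest values differed by gene. Igkc, Ighm and Jchain peaked in KO treated 263, Blnk and Cd79b in WT treated 262, and Cd79a, Ebf1, Pax5 and Vpreb3 in WT treated 266, so no member peaked in a vehicle library. Most markers of plasmacytoid dendritic cells (pDC) and of T and NK cells had the same sign, and their part in the members' values was not tested. Of the 12 listed pDC markers 11 were tested, and 9 in the KO and 10 in the WT niche had a positive log2 fold change for treated over vehicle, with medians of 1.60 and 2.07. Higher without overlap were 4 and 6 of them, against 12.3% and 17.5% of all genes. Their summed level was 540 to 783 CPM in KO treated, 966 to 1265 CPM in WT treated, 422 to 598 CPM in KO vehicle and 647 to 791 CPM in WT vehicle libraries. Siglech, a defining pDC receptor, was at 43.9, 5.68 and 26.7 CPM in KO treated libraries, 20.3, 59.3 and 67.4 CPM in WT treated libraries, 1.57 and 0.286 CPM in KO vehicle and 10.5, 0.117 and 4.43 CPM in WT vehicle libraries. Siglech was low in 263, where Igkc, Ighm and Jchain were highest, and high in 262 and 266. Of the 12 listed markers, 4 were highest in 266 (Cox6a2, Ly6d, Pacsin1 and Siglech). In 263 it was 1, Runx2, at 43.5 CPM, named after its values were seen. Ptprcap was at 0 in every library.

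Plasma cell and T-cell markers stood as follows beside these results. The 12 plasma cell genes summed to 339 to 739 CPM in KO treated, 505 to 627 CPM in WT treated, 817 to 957 CPM in KO vehicle and 590.1 to 934 CPM in WT vehicle libraries. Most of that sum came from Xbp1, Txndc5, Creld2 and Edem1, secretory genes of many cells, at means of 267, 119, 113 and 104 CPM. Prdm1, the regulator of plasma cell fate, was at 0, 2.37 and 0 CPM in KO treated libraries, 0.371, 0.122 and 0.413 CPM in WT treated libraries, 0 and 1.35 CPM in KO vehicle and 0, 0 and 0 CPM in WT vehicle libraries. Prdm1 was the only 1 of the 12 plasma cell genes with its highest value in 263. Among treated libraries, Sdc1 and Irf4, picked after their values were seen, were also highest in 263, at 4.83 and 3.98 CPM. Both were higher in WT vehicle 253, at 9.39 and 4.37 CPM, and Irf4 also in WT vehicle 240, at 13.1 CPM. The 15 T and NK cell genes summed to 354 to 1284 CPM in KO treated, 1067 to 1811 CPM in WT treated, 861 to 888 CPM in KO vehicle and 604 to 773 CPM in WT vehicle libraries, mostly from Nkg7, which averaged 839 CPM. Treated over vehicle, 12 of 15 were positive in each niche, with medians of 1.71 and 2.87. Cd3e, a T-cell receptor chain, was at 0.0919, 1.49 and 1.44 CPM in KO treated libraries, 0.124, 0 and 0 CPM in WT treated libraries, 0 and 1.60 CPM in KO vehicle and 0, 0 and 0 CPM in WT vehicle libraries.

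Across the 11 libraries, the genes whose levels ran most like the members' mean came from none of the B-lineage lists. Among 10045 genes compared, the highest Pearson correlation of log2 CPM with the mean of the members' standardised values was 0.86 for Treml4, a receptor of myeloid and dendritic cells, followed by 0.83 for Ssbp2, 0.83 for Mff and 0.82 for Nudt21. Treml4 was at 2.71, 6.88 and 3.96 CPM in KO treated libraries, 21.1, 11.8 and 27.3 CPM in WT treated libraries, 0 and 7.28 CPM in KO vehicle and 4.26, 0 and 0.123 CPM in WT vehicle libraries. For single members the most alike were Mitd1 for Cd79b (0.96), Rtn4 for Igkc (0.92), Cnih1 for Blnk (0.91), Fbxo5 for Vpreb3 (0.88) and Wtap for Cd79a (0.88), each a different gene. These values describe 11 points that share depth and sort, picked as the highest of many, and carry no test.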

How the data were processed

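RNA of the 11 libraries was extracted, amplified and made into libraries with RNeasy Plus Micro, SMARTer Ultra Low Input (v4) and Nextera XT kits, per the labels' protocols, which do not keep the strand. The values analysed are raw counts, which the authors deposited without normalization for 53700 Ensembl genes. Per the submitters' processing notes, the build is GRCm39 and the tools, named without roles, are STAR 2.7.9a, HTSeq (version listed: 0.6.7), Trim Galore 0.6.7, bcl2fastq and DESeq2; the annotation and strand setting are not given in the sources used here. Its 5 summary lines were left out. Symbols of 52093 genes and exon lengths came from a GENCODE annotation of an earlier build, so no gene coordinates are given.

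The counts were tested in edgeR 4.0.16 (R 4.3.3). After filterByExpr, which left 16639 genes, and TMM scaling, 1 robust quasi-likelihood model held the 4 groups (biological coefficient of variation 0.783), and no pairing or batch, which the labels lack. The 5 contrasts were both KO over WT differences, both treated over vehicle differences, and their interaction. Calls needed an adjusted p under 0.05 (Benjamini-Hochberg, all genes tested). SE was derived from the F statistic, as log2 fold change over its square root. CPM uses TMM-scaled library sizes, a group at 0 is set to a floor of 3 counts over the group, and counting intervals are 95% exact intervals. The pipeline was tested on simulated data.

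Alternatives were DESeq2 size factors, no filter, the DESeq2 1.42.0 Wald test, limma 3.58.1 voom with quality weights, each library left out in turn, 253 and 265 left out together, and, chosen after seeing the data, total gene counts without TMM, and pooled ratios, bounds and counts without overlap with libraries left out. The members and the context lists were chosen with earlier results of these data known. All 9 members are named; of each context list, the 4 genes of highest mean CPM and Ms4a1, Vpreb1, Igll1, Rag1, Dntt, Il7r, Prdm1, Xbp1, Siglech, Cd3e, Kit and Flt3 could be named, and the text gives a part of these; 1 further gene of that rule is not reported here. The genes most like the members are those of highest Pearson correlation among genes with a mean log2 CPM of at least 1, leaving out immunoglobulin genes and predicted models.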

Additional observations from a re-analysis of the deposited data

How the results depend on the processing

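No paired analysis was possible because the library numbers are unique and pair no samples across groups. Of 604 recomputed log2 fold changes of the members, 573 kept their direction and their side of the threshold, 8 passed the threshold only under the alternative, and 23 changed sign; the cause was not tested except where the setting removes a library. Genes called, 0 with edgeR in each of the 5 comparisons, numbered 249, 224, 1106, 23 and 58 with DESeq2's Wald test for KO over WT in treated hosts, KO over WT in vehicle hosts, treated over vehicle in the WT niche, treated over vehicle in the KO niche and the interaction. Without the filter the first 3 of these gave 43, 11 and 215 called genes, and limma voom gave 4375 for KO over WT in treated hosts. Leaving out 1 library gave 0 to 1513 for KO over WT in treated hosts (1513 without 257), 0 to 85 in vehicle hosts (without 240), 0 to 1012 for treated over vehicle in the WT niche (1012 without 257, 190 without 240) and 0 to 1 for the interaction (without 240).

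Members called, 0 with edgeR, were 1 with limma voom and 0 to 1 when 1 library was left out for KO over WT in treated hosts (Cd79b), and with DESeq2 they were 4 for treated over vehicle in the WT niche and 2 in the KO niche. Members lower without overlap in KO, 1 in treated hosts, numbered 0 with DESeq2 size factors and 1 to 3 when 1 library was left out (3 without 252 or 276, 2 without 263, at 13.9%, 12.8% and 12.3% of all genes, against 9.56%). In vehicle hosts, 2 in the main comparison, they were 0 with total gene counts and 5 without 253 and 265, where 36.8% of all genes lay so, against 7.47% with them. Members higher without overlap in treated than in vehicle libraries of the KO niche, 3, were 7 without 275, where 24% of all genes lay so, against 12.3% with it. Scaling by total gene counts moved the median of all genes by 0.133 for KO over WT in treated and 0.266 in vehicle hosts, so the positive Ighm value of 0.030 under it lies below that shift.

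Log2 fold changes that changed sign for KO over WT in treated hosts were Igkc (-0.21) and Jchain (-0.90) without 263, Ighm with limma voom (0.18), total gene counts (0.030) and without 257 (0.060), and Ebf1 with limma voom (0.57) and without 266 (0.58). In vehicle hosts they were Igkc without 249 (0.18), Jchain without 240 (0.53), Cd79a without 275 (-0.016), Ebf1 with limma voom (-0.87), without 253 and 265 (-0.94), without 253 (-0.17), without 265 (-0.19) and without 275 (-4.80), and Pax5, at 0 counts in both groups, without 253 and without both 253 and 265 (0). For treated over vehicle in the KO niche they were Ighm without 263 (-0.045), Cd79b without 257 (-0.040) and Vpreb3 with limma voom (-0.17), total gene counts (-0.052), without 249 (-0.52) and without 257 (-0.29). The ranges with 1 library left out follow. For KO over WT in treated hosts, Igkc ranged from -0.21 to 1.93, Ighm from -1.03 to 0.060, Jchain from -0.90 to 2.46 and Ebf1 from -3.15 to 0.58. For KO over WT in vehicle hosts, Igkc ranged from -1.64 to 0.18, Jchain from -1.92 to 0.53, Ebf1 from -4.80 to 2.21, Pax5 from -2.91 to 0 and Cd79a from -0.016 to 4.98. For treated over vehicle in the KO niche, Ighm ranged from -0.045 to 1.26, Cd79b from -0.040 to 0.61 and Vpreb3 from -0.52 to 1.15. In the WT niche no recomputed value changed sign, but Pax5 did not pass the filter without 266 or without 276, which left 8 of 612 values without a fit, and its pooled ratio without 266 was 0.716. Depth limits Blnk, Ebf1, Pax5, Cd79a and Vpreb3 most, where a vehicle group held 9 counts or fewer.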

Other observations

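The constant genes of switched and lambda immunoglobulins, which are no members, peaked in several different libraries. Ighg2b, which encodes IgG2b, was at 70.5, 0.205 and 1.48 CPM in KO treated libraries, 20.4, 0.407 and 0 CPM in WT treated libraries, 0.134 and 3.44 CPM in KO vehicle libraries and 0.0646, 6.24 and 0 CPM in WT vehicle libraries. Ighg3 was at 65.3 CPM in WT treated 252, the library led by Igkv19-93 and Ighv5-9-1, and at 3.43 CPM or less in the other 10. Igha, which encodes IgA, had counts in all 11 libraries and was at 8.78, 0.264 and 14.3 CPM in KO treated libraries, 0.773, 0.285 and 8.62 CPM in WT treated libraries, 4.34 and 18.5 CPM in KO vehicle libraries and 40.7, 3.85 and 12.4 CPM in WT vehicle libraries. Its highest value lay in WT vehicle 240, so it did not share the treated-over-vehicle direction of Igkc. Ighg1, picked after its values were seen, had counts only in WT vehicle 253 and 265, at 7.58 and 0.49 CPM. Iglc3, a lambda constant gene, was at 2.80, 0.264 and 0.519 CPM in KO treated libraries, 1.79, 4.64 and 4.08 CPM in WT treated libraries, 0 and 0.0409 CPM in KO vehicle libraries and 1.10, 0 and 0 CPM in WT vehicle libraries. Some lambda and some IgG constant genes are close in sequence to one another, so their counts can be uncertain. Of the 10 genes of this list 8 were tested, and none passed the edgeR test in any comparison, with 5 of 8 positive for treated over vehicle in each niche.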
